A study of Mus musculus with 12 samples.

Results

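Open chromatin was compared between wild-type (WT) mouse macrophages exposed to lipopolysaccharide (LPS) for 6 h and the same kind of cells at 0 h. The 4 libraries of this comparison, 2 at 6 h and 2 at 0 h, were chosen by genotype and time from a series of 12, which also profiled macrophages without lincRNA-EPS, a long noncoding RNA (KO). All libraries are ATAC-seq, which uses the Tn5 transposase to insert sequencing adapters into accessible DNA. The WT groups consisted of bone marrow cells of female C57BL/6 mice, matured over 9 days with a 20% L929 growth supplement and then given LPS at 100 ng/ml for 6 h or 0 h. Each transposition used 50000 cells. Nothing in the labels tells whether replicate libraries derive from different mice or dishes, so the spread between them, and any p built on it, may be technical.

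LPS, a component of the outer membrane of Gram-negative bacteria, is sensed on macrophages by the receptor TLR4. Signalling through its adaptors activates NF-κB, AP-1 and interferon regulatory factors, and a secreted wave of type I interferon follows. Macrophage regulatory DNA is held open at rest by lineage factors such as PU.1, and stimulation is known to add enhancers that were closed before. Whether a stretch of DNA is closed at rest and opened by the stimulus, or already open and altered, is what a comparison of peak lists at the start and after several hours can describe.

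The 2 lists at 6 h held 81749 and 85169 peaks, against 67128 and 66885 peaks in the 2 lists at 0 h. Both lists at 6 h were longer than both at 0 h, by 16452.5 peaks on average. The mean was 83459 ± 2418 peaks at 6 h and 67006.5 ± 172 at 0 h (SD, n = 2 each), and the exact two-sided permutation p = 0.333 is the smallest that 2 against 2 libraries can give. Peaks covered 42.6 ± 0.443 Mb at 6 h and 34.5 ± 0.182 Mb at 0 h. Median peak width was 446 and 439 bp at 6 h, against 448 and 446 bp at 0 h.

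Read numbers are not among the sources used here, and background coverage recovered from the deposited peak values stood in for depth. It was 2.67 and 2.18 reads at 6 h, against 2.35 and 2.51 reads at 0 h, with group means of 2.43 at both times. The library with the lowest background, 6 h replicate 2, held the most peaks. At regions called in all 4 libraries the median summit coverage was 8.27 and 9.16 times the local background at 6 h, and 8.82 and 8.39 times at 0 h, so the groups overlapped in this measure of enrichment. Both measures describe these libraries only, and the part of library quality in the longer lists at 6 h was not tested.

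**Figure D1:**
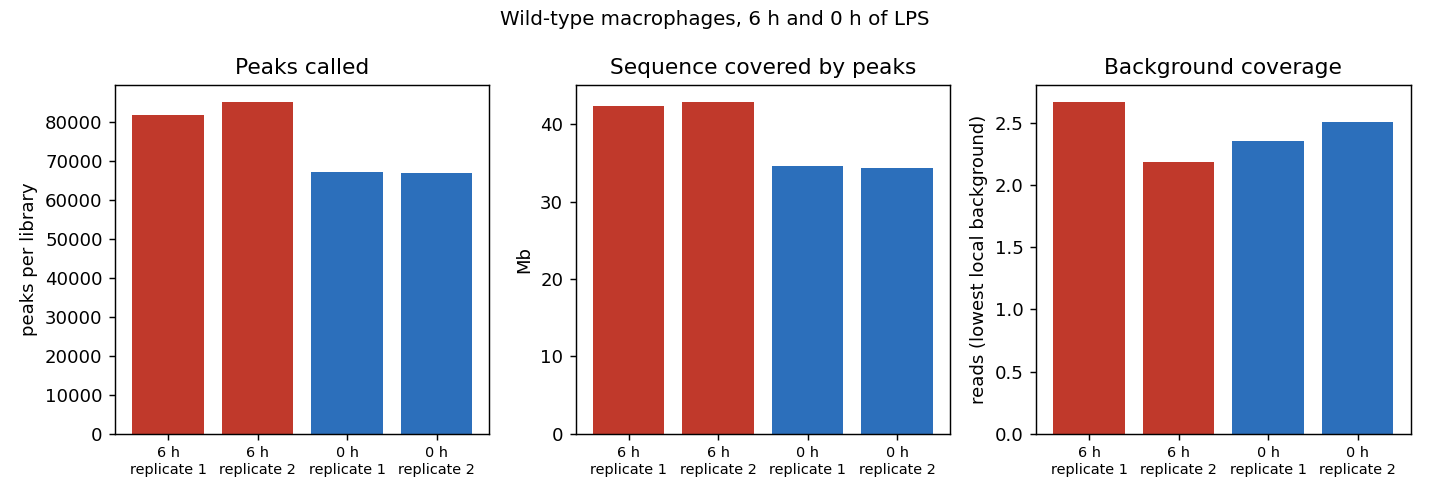
Peaks called (left), megabases covered by peaks (middle) and background coverage in reads (right) for each WT library at 6 h (red) and 0 h (blue), 1 bar per library. Both 6 h libraries hold more peaks and cover more sequence than both 0 h libraries, while their background coverages of 2.67 and 2.18 reads lie on either side of those at 0 h.

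Peaks of the 4 lists that overlapped by at least 1 bp were chained into regions, which gave 100138 regions from 300931 peaks. All 4 libraries called 51928 of these (51.9%), and a single library called 20364 (20.3%). A region counted as gained when 2 of 2 libraries at 6 h and 0 of 2 at 0 h called it, and as lost in the reverse case. By this rule 11588 regions were gained, 11.6% of all regions, and 1733 were lost, 1.73% of all regions. Gained regions thus outnumbered lost ones 6.69 to 1, and they spanned 4.97 Mb against 0.634 Mb.

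Seen from the state at rest, most of the open genome stayed callable. Of the 56872 regions called in both libraries at 0 h, 3.05% were lost, whereas 16.4% of the 70699 regions called in both libraries at 6 h were gained. Of the 26434 regions called in at least 1 library at 6 h and 0 of 2 at 0 h, 43.8% were called in both libraries, and of the 7251 regions with the reverse pattern 23.9% were. Over whole lists the replicates shared regions about equally at both times, with 88.0% and 84.9% of a library's regions also called in its replicate at 6 h, against 86.9% and 87.3% at 0 h.

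These counts depend on how long the lists are and on single libraries. With an equal number of peaks taken from each list, 6099 regions were gained and 4387 lost, so that gained regions made up 58.2% of the changed regions in place of 87.0%. In that setting every added peak displaces another. Thinned to the lowest background coverage of the 4 libraries, the lists gave 11363 gained and 1756 lost regions. The gained count was 20379 without 6 h replicate 1 and 18245 without 6 h replicate 2, and the lost count was 3120 and 3628 in these settings, 4661 without 0 h replicate 1 and 4499 without 0 h replicate 2. A pair asks for 2 calls where a remaining library asks for 1.

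**Figure D2:**
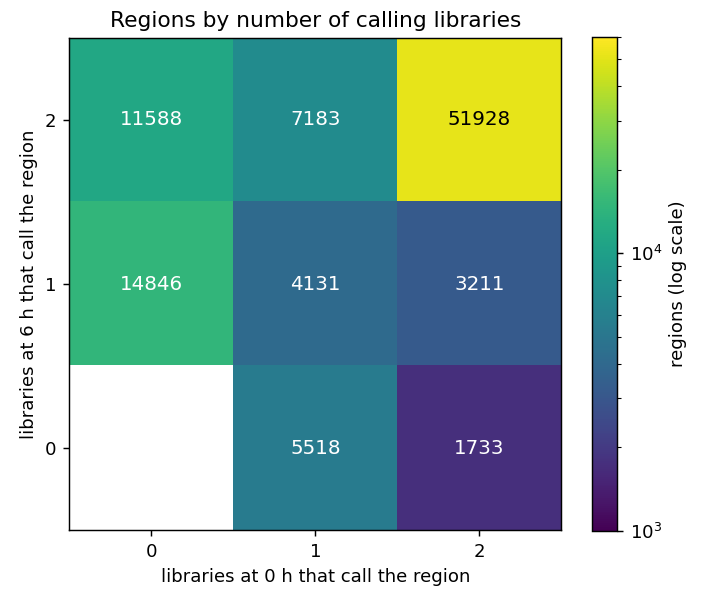
Number of regions by how many of the 2 libraries at 6 h (vertical axis) and of the 2 at 0 h (horizontal axis) call them, with colour on a log scale. The upper left cell holds the 11588 gained regions, the lower right cell the 1733 lost regions and the upper right cell the 51928 regions called in all 4 libraries.

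Gained regions were mostly modest peaks within the 6 h lists. Their median percentile of −log10 q was 27.9 in 6 h replicate 1 and 31.3 in 6 h replicate 2. Of the 11588, 2068 and 2434 stood above percentile 50 of the 2 lists, and 33 and 39 above percentile 90. Median summit coverage was 22 reads in both libraries. Lost regions stood lower still in the 0 h lists, with median percentiles of 19.6 and 20.5, and 0 of them above percentile 90 of either list. For scale, regions called in all 4 libraries had median percentiles of 66.8 and 67.9 at 6 h, against 61.1 and 60.9 at 0 h. These percentiles belong to lists of different lengths, so they describe standing within a list and no change between times.

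At the border of the rule, the weakest gained peak had a −log10 q of 2.17 and a summit coverage of 10 reads, which is also the lowest coverage of any called peak in each of the 4 lists. A further 7183 regions were called in both libraries at 6 h and in 1 of 2 at 0 h, and so just missed the rule. Their peaks stood at median percentiles of 32.8 and 35.1 at 6 h, slightly above those of the gained regions. In the library at 0 h that called them they stood at 16.8 (replicate 1) and 15.7 (replicate 2). Being called or not at 0 h therefore separates regions that were similar at 6 h, and a region counted as gained may have been open below the calling limit at rest.

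**Figure D3:**
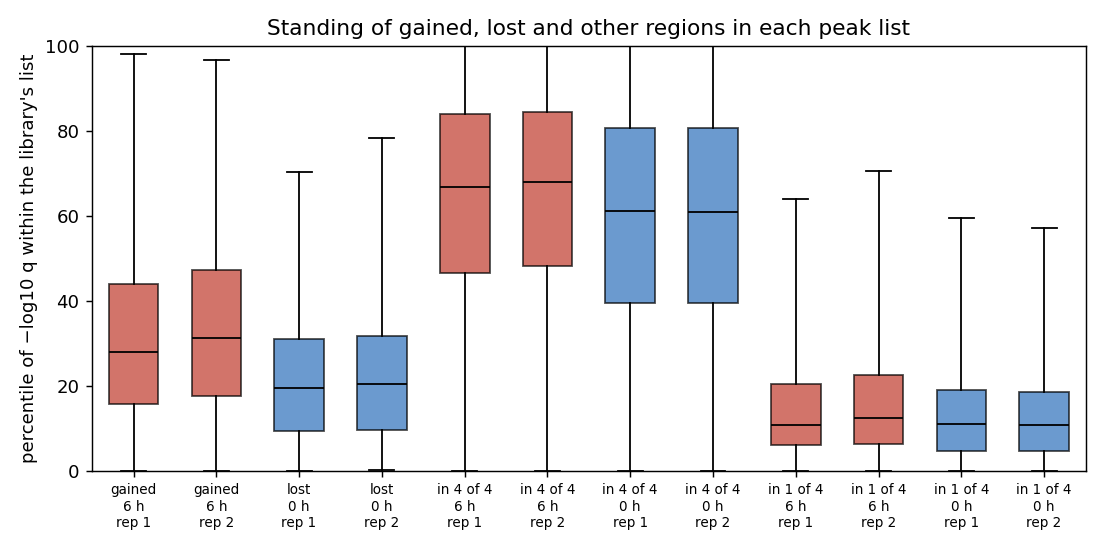
Percentile of −log10 q within each WT library's own list for gained regions, lost regions, regions called in 4 of 4 and regions called in 1 of 4, at 6 h (red) and 0 h (blue). Boxes span the quartiles with the median as a line, and whiskers reach the lowest and highest region. Gained regions have medians of 27.9 and 31.3, lost regions 19.6 and 20.5.

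Although most gains were weak, a small set stood above percentile 90 of both lists at 6 h. The 10 regions described here had the highest lower-of-2 percentile. Leading them was a 784 bp region at chr18:11886284-11887067 (mm9, as are all coordinates), at the 96.9 and 96.1 percentiles, with 91 and 88 reads at the summit and folds of 15.1 and 14.8, a fold being summit over local background with 1 read added to each. No WT library at 2 h called it, and neither did either KO library at 2 h, while both KO libraries at 6 h did. It lay 31.2 kb from the nearest region called in all 4 libraries.

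The second region, chr17:87349286-87350111, stood at 96.2 and 95.8 with summit coverages of 112 and 107 reads, and both WT libraries at 2 h had already called it. The same early call was made for chr17:17591468-17592120, which stood at 98.0 and 95.1 with folds of 15.3 and 13.2. Their local backgrounds differed, at 9.92 and 9.08 reads around the first of this pair and 5.6 and 5.82 reads around the other. The highest mean fold of the set, from 15 and 17.1 in the 2 libraries, was at chr14:58102886-58103487, called in 0 of 2 WT libraries at 2 h and in 2 of 2 KO libraries at 2 h.

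One of the strong gains was far from any region called in all 4 libraries. The region at chr3:141201007-141201675, at percentiles of 94.6 and 96.2, was 324.6 kb from the nearest region called in all 4 libraries. The widest of the 10, with 1302 bp, lay at chr6:15632974-15634275 and stood at 94.97 and 93.65. The remaining 4 were chr13:111423425-111424281, chr18:50401866-50402723, chr16:49633562-49634157 and chr2:84351362-84352276, with percentiles from 92.8 to 96.2. Of the 10, 3 were called in 2 of 2 WT libraries at 2 h, 4 in 1 and 3 in 0. Over all regions these shares were 62.4%, 13.6% and 24.0%. All 10 were called in both KO libraries at 6 h, and 9 of them in 0 of 2 KO libraries at 0 h, which held for 70.1% and 34.9% of all regions.

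The strongest lost regions stood lower in their lists than the strongest gains. At chr2:6628380-6628825 the peaks stood at the 70.4 and 78.3 percentiles of the 0 h lists, with 58 and 67 reads at the summit and folds of 7.28 and 8.11. The next region, chr13:117817086-117817513, stood at 67.5 and 67.9 with 70 and 77 reads, over local backgrounds of 12.02 and 14.72 reads that left folds of 5.45 and 4.96. Backgrounds of 7.1 reads or more were found at both of these and at chr8:122348737-122349157, chr16:44993450-44993845 and chr11:77794082-77794528, against medians of 3.06 and 3.26 reads over all lost regions. These 5 regions, grouped after their values were seen, lay 0.790 to 2.77 kb from a region called in all 4 libraries, and the other 5 lay 3.78 to 150.9 kb away.

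Other strongly ranked losses stood on low background. The region at chr13:99737874-99738482 had the highest mean fold among the 10, from 9.24 and 10.1 in the 2 libraries, over local backgrounds of 2.68 and 2.96 reads. Close to it in fold were chr13:113223356-113223962, with 9.55 and 8.42, and chr5:132642239-132642861, with 8.65 and 9.46, which was the one 150.9 kb from a region called in all 4 libraries. The last 2 were chr3:79493570-79494673, the widest at 1104 bp, and chr3:101301547-101302101. All 10 were called in 2 of 2 WT libraries at 2 h and in 2 of 2 KO libraries at 0 h, calls made at 62.4% and 48.7% of all regions. At 6 h the KO libraries called 2 of them in both libraries, 6 in 1 library and 2 in neither, while 70.1% of all regions were called in both.

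Gained regions had a median width of 398 bp, against 347 bp for lost regions, 648 bp for regions called in all 4 libraries and 245 bp for regions called in 1 library. A region spans all peaks chained into it, so regions called in more libraries tend to be wider by construction. Gained regions lay a median of 8.71 kb (quartiles 3.35 and 21.2 kb) from the nearest region called in all 4 libraries. Lost regions lay nearer, at 5.30 kb (quartiles 2.24 and 15.2 kb), and 66.5% of them were within 10 kb of such a region, against 54.4% of gained regions. Regions called in 1 library were placed like the gained ones, with a median of 8.95 kb and 53.5% within 10 kb. Gained regions lay near one another somewhat more often than other regions lay near them. Within 10 kb of another gained region were 21.2% of gained regions, and within 10 kb of a gained region were 18.004% of lost regions, 17.6% of regions called in all 4 libraries and 16.7% of those called in 1.

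All chromosomes in the lists held both kinds of region, and gained regions outnumbered lost ones on each of them. The gained share of regions ran from 9.53% on chromosome 11 to 13.3% on chromosome 13. Lost regions made up 1.25% of the regions on the X chromosome and 2.13% on chromosome 19. The ratio of gained to lost regions was 9.97 on the X chromosome and 9.76 on chromosome 3, and it was lowest on chromosome 11, at 4.55.

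Gained regions were also counted in fixed windows along the genome. In windows of 100 kb, 7463 of the 15942 windows with any region held a gained one, and 95 windows held 5 or more. Those 95 windows, chosen by that count, held 521 gained regions, 4.50% of the gained regions, and 1.31% of all regions. The densest, chr13:16000001-16100000, had 9 gained regions among 13, 0 lost and 0 called in all 4 libraries. Its gained regions spread over 98.6 kb and reached the 71.3 percentile, taking the lower of the 2 libraries for each. None was called in both WT libraries at 2 h, 3 were called in 1, and 8 of the 9 were gained in KO as well. For scale, both WT libraries at 2 h called 16.5% of all gained regions, against 62.4% of all regions. Neither called 59.7% of gained regions, against 24.0% of all regions. In KO, 56.0% of the regions gained in WT and 13.4% of all regions were gained.

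Next came chr5:30200001-30300000, with 8 gained regions of 11 and the strongest at the 74.5 percentile. None of its gained regions was called at 2 h in WT, and 7 were gained in KO. On chr13:42300001-42400000 there were 8 gained regions of 15, of which 7 were called in 0 of 2 WT libraries at 2 h and all 8 were gained in KO. Of the windows with 7 gained regions, 2 are named by the order of their position. At chr2:113400001-113500000 only 4 of the 7 were gained in KO, although both KO libraries called all 7 at 6 h, since KO libraries at 0 h had called the other 3. At chr3:135300001-135400000 the 7 gained regions stood among 8 regions called in all 4 libraries and reached the 89.2 percentile, and 6 were gained in KO.

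No window held more than 3 of the 1733 lost regions, and 6 windows held 3. Lost regions were far fewer than gained ones, so the counts per window are not comparable between the directions. Of these, chr1:156900001-157000000 and chr2:22600001-22700000 each had 14 regions called in all 4 libraries, and their lost regions stood at the 22.5 percentile or lower. In chr1:196800001-196900000, chr6:51500001-51600000 and chr13:106000001-106100000, 7, 8 and 4 regions were called in all 4 libraries. The lost regions of these windows reached the 31.8, 33.1 and 10.8 percentiles. Lost and gained regions shared 886 windows. Windows with a gained region held 56.0% of the lost regions and 56.5% of the regions called in all 4 libraries, so losses were placed near gains about as often as persistent regions were.

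Libraries that the rule did not use show when these regions became callable. At 2 h of LPS, 1917 of the 11588 gained regions (16.5%) were called in both WT libraries, 2752 (23.7%) in 1 and 6919 (59.7%) in neither. The 2 h libraries, whose peak names give 1 h where the labels give 2 h, called 32.0% and 24.9% of the gained regions at background coverages of 3.03 and 2.32 reads. The deeper library called more of them. Over all 100138 regions, 62.4% were called in both WT libraries at 2 h. Of the 14846 regions called in a single WT library of the comparison, at 6 h, 76.7% were called in neither at 2 h.

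Gained regions that stood higher at 6 h were more often called at 2 h. Split into 4 equal groups by the lower of their 2 percentiles at 6 h, gained regions were called in both WT libraries at 2 h in 11.7%, 13.5%, 16.2% and 24.9% of cases, from the weakest group to the strongest. Even in the strongest group 51.9% were called in neither library at 2 h. Both KO libraries at 0 h likewise called more of the strongest group (3.69%) than of the weakest (1.83%). Whether stronger regions were only easier to call at 2 h was not tested. Of the 1733 lost regions, both WT libraries at 2 h called 962 (55.5%) and neither called 231 (13.3%), against 62.4% and 24.0% of all regions, and in the strongest of 4 equal groups of lost regions the share called in both was 78.8%.

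**Figure D4:**
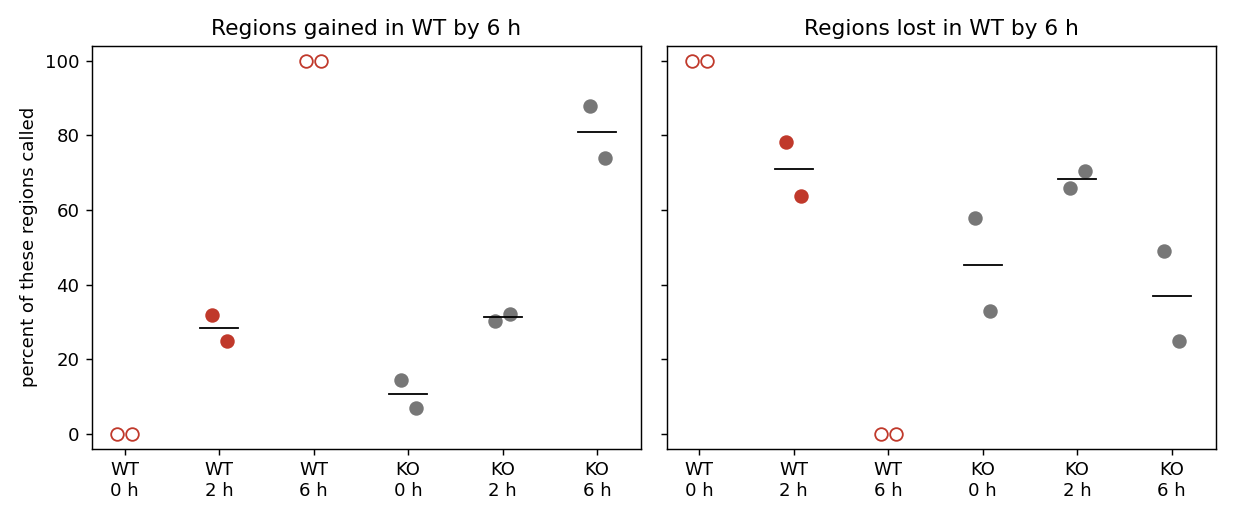
Percent of the regions gained (left) and lost (right) in WT by 6 h that each library calls, by genotype and time, 1 point per library and a line at the mean of the libraries the rule did not use. Open points are the 4 libraries whose calls the rule fixed at 0 or 100%. The KO libraries at 6 h call 87.9% and 74.0% of the regions gained in WT, against 14.3% and 6.93% in the KO libraries at 0 h. Both KO libraries call 69.9% of the gained regions at 6 h and 2.81% at 0 h, against 70.1% and 48.7% of all regions.

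The KO libraries gave a second set in which the same regions could be looked up. KO libraries at 6 h called 87.9% and 74.0% of the regions gained in WT, and KO libraries at 0 h called 14.3% and 6.93%. The 2 groups of libraries did not overlap. Both KO libraries at 6 h called 69.9% of the gained regions, near the 70.1% of all regions. Neither KO library at 0 h called 81.6% of the gained regions, against 34.9% of all regions. For regions called in a single WT library, at 6 h, that share was 89.5%, so it is not particular to gained regions. Both KO libraries at 6 h and 0 of 2 at 0 h called 6486 of the 11588 regions (56.0%), while 13.4% of all regions had this pattern in KO. It was found at 16.4% of the regions called in a single WT library, at 6 h. The 6486 were 48.2% of the 13459 regions with the pattern. The reverse pattern in KO was found at 11 of the gained regions (0.0949%), and 0.523% of all regions had it.

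Depth differed more in KO than in WT, with background coverages of 3.35 and 2.17 reads at 6 h and 1.77 and 1.43 reads at 0 h. In lists of the 10 libraries thinned to the lowest of these, the rule chose regions anew and gave 9968 gained in WT. KO libraries at 6 h called 79.2% and 74.6% of these, and those at 0 h called 17.6% and 9.85%. The shares before and after thinning are therefore not of the same regions. The share with the full pattern in KO was then 48.6%, against 10.6% of all regions. In the deposited lists that share was 36.5% in the weakest of the 4 equal groups of gained regions and 77.8% in the strongest, of which 97.3% were called in both KO libraries at 6 h, against 70.1% of all regions. Neither KO library at 6 h called 918 of the gained regions (7.92%), against 13.9% of all regions.

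KO libraries at 6 h called 48.9% and 24.9% of the regions lost in WT, and KO libraries at 0 h called 57.8% and 32.8%, so that the groups overlapped. In the 10 thinned lists the rule chose 1768 lost regions anew. KO libraries called 39.8% and 29.5% of these at 6 h, against 62.8% and 42.3% at 0 h, with no overlap. The shares of all regions called by each KO library in the thinned lists are not given here. The lost pattern in KO was met by 146 of the 1733 (8.42%), compared with 0.523% of all regions, and these were 27.9% of the 524 regions with that pattern in KO. By contrast, KO gained 78 of the regions that WT lost (4.50%), below the 13.4% of all regions.

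The 51928 regions called in all 4 WT libraries were open at both times, and their heights could be ranked among the same regions in each list. Between the 2 replicates a region's percentile of −log10 p differed by a median of 6.67 points at 6 h and 6.60 points at 0 h. Between a library at 6 h and one at 0 h the median difference was 9.76 to 9.97 points. Differences of 20 points or more were found at 5105 regions between the 6 h replicates and 5456 between the 0 h replicates, and at 12219 to 12600 regions between libraries of different times. Rank order thus differed more between times than between replicates.

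Regions were counted as shifted when both percentiles at 6 h lay on the same side of both at 0 h and the means differed by at least 20 points. By this rule 4962 regions (9.56%) ranked higher at 6 h and 4450 (8.57%) ranked lower. The smallest shift counted as higher was 20.01 points, and the largest that missed was 19.997. Both directions were near balance here, which a rank within one set of regions tends to force. With at least 30 points the counts were 2371 higher and 1552 lower, and with at least 10 points 9392 higher and 10324 lower, so the larger of the directions changed with the size asked for.

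The largest shift upward was at chr9:109751775-109752708, with percentiles of 96.0 and 96.1 at 6 h, against 12.7 and 2.30 at 0 h. At chr1:152044450-152045505 the percentiles were 96.3 and 97.9 at 6 h, against 11.99 and 9.41 at 0 h, and 4 gained regions lay within 50 kb. The next 3 were chr4:59420500-59421207, chr12:32831326-32832151 and chr2:140689088-140689783, with mean shifts of 85.0, 83.2 and 83.2 points. All 5 stood below percentile 15 at rest and above percentile 90 of the persistent regions at 6 h. The region on chromosome 12 was called in 0 of 2 KO libraries at 0 h and the other 4 in both. Of all regions called in the 4 WT libraries, 3.08% and 85.8% were so called.

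The largest downward shift was at chr2:22645795-22646407, with percentiles of 6.38 and 9.63 at 6 h, against 82.69 and 74.98 at 0 h. It lies in one of the windows named above for its 3 lost regions. At chr1:133568843-133569525 the percentiles were 5.97 and 21.0 at 6 h, against 84.8 and 82.3 at 0 h. Further regions were chr1:129910368-129910937, chr2:164266566-164267150 and chr10:59824819-59825535, which moved by means of −69.5, −68.8 and −67.6 points. In each of these 5 both libraries at 6 h stood far below both at 0 h, while a peak was still called.

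Regions that ranked higher lay a median of 33.7 kb from a gained region, and those that ranked lower 38.3 kb, compared with 39.3 kb for all regions called in the 4 libraries. To a lost region the medians were 334.1 kb for regions ranked higher and 214.9 kb for those ranked lower, compared with 267.2 kb for all. Within 10 kb of a gained region were 19.7% of the regions in both directions, against 17.6% of all.

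KO and 2 h libraries did not enter the rule for shifts, but calls in them limited the regions compared here. Among the 43380 regions also called in both WT libraries at 2 h and in all 4 KO libraries at 6 and 0 h, the percentiles were taken anew. These held 3682 regions that ranked higher in WT and 4014 that ranked lower, against 4962 and 4450 without that limit. In KO, both 6 h libraries ranked above both 0 h libraries at 2893 of the 3682 regions that ranked higher in WT (78.6%), and at 24.9% of all regions. Both ranked below at 2707 of the 4014 regions that ranked lower in WT (67.4%), compared with 28.5% of all. The opposite order in KO was found at 55 and 101 of these regions. In KO the median difference of 6 h minus 0 h was 25.7 points for the regions higher in WT and −18.5 points for those lower in WT.

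At 2 h in WT the shifted regions among these 43380 stood nearer to their rank at rest. For regions that ranked higher, the median percentile was 18.7 at 0 h, 28.3 at 2 h and 57.2 at 6 h. For those that ranked lower it was 48.8 at 0 h, 41.6 at 2 h and 17.6 at 6 h. The mean at 2 h lay between those at 0 h and 6 h for 71.9% of the regions ranked higher and 74.0% of those ranked lower. Regions chosen for a wide gap hold a value in between more often by construction, so these shares are a description.

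**Figure D5:**
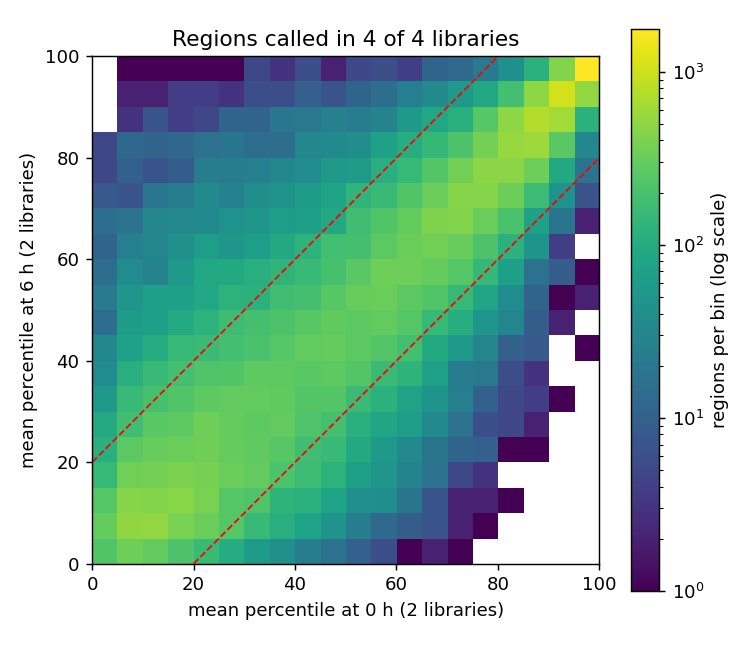
Mean percentile of −log10 p at 6 h (vertical axis) against that at 0 h (horizontal axis) for the 51928 regions called in all 4 WT libraries, as counts in bins of 5 points with colour on a log scale. Dashed lines mark a shift of 20 points; the 4962 regions counted as higher lie above the upper line and the 4450 counted as lower lie below the lower line.

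Genes are not named here, because no gene annotation of the mm9 build was used, and for the same reason the labelled cell type was not checked against marker genes.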

How the data were processed

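The peak lists of the WT libraries at 6 h and 0 h were analysed, with those of WT at 2 h and of KO looked up at the same places. Per the submitters' processing notes, the tools were Bowtie2 2.1.0, Picard and MACS2, on mm9. How duplicates and the Tn5 offset were handled, and which MACS2 settings were chosen, is not stated in the material used here; duplicates left in would raise peak values. The names of the deposited peaks show 1 call set per library. In the deposited lists a peak has its fold (summit coverage plus 1 over local background plus 1, a ratio that the added read lowers most where the background is low), its p-value and q-value as −log10, and a score equal to 10 times the −log10 q. All are the authors' numbers and served to rank and filter peaks inside a list. Peaks lie on the 19 autosomes and on X.

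Summit coverage and local background were solved from the deposited fold and p as a whole number of reads. The deposited −log10 p was matched within 0.001 for 100% of peaks, and the lowest background served as a library's depth. Thinning drew summit reads at random to the lowest background coverage of the lists compared and kept peaks with a −log10 p of at least 4.17 among the 4 lists, or 4.28 among 10 lists. A peak call has no counting interval. Regions carry no test, since presence in a list has no model and an exact permutation test of 2 against 2 libraries cannot pass a threshold of 0.05. The rule for named regions took 10 gained and 10 lost regions by the lower of 2 percentiles of −log10 q, 5 windows per direction by count and 5 rank shifts per direction. The members and rules were chosen with earlier results of these data known. The counting was tested on simulated peaks. Software versions were numpy 2.4.6, scipy 1.17.1, pandas 2.3.3 and matplotlib 3.10.9 under Python 3.11.15.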

Additional observations from a re-analysis of the deposited data

Results flagged for a closer look

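The genotypes went opposite ways at some regions. WT gained and KO lost 11 regions by 6 h, each in 2 of 2 libraries, and WT lost and KO gained 78. The 11 were 0.0949% of the regions gained in WT, while 0.523% of all regions were lost in KO, and the 78 were 4.50% of those lost in WT, while 13.4% of all regions were gained in KO. Both shares lay below those over all regions. They are listed because every library of one genotype moved one way and every library of the other the opposite way. No test of this difference was made. The strongest of the first kind, chr3:152412549-152413023, stood at the 31.4 and 34.0 percentiles in the WT lists at 6 h, and the strongest of the second kind, chr3:90242527-90242858, at 35.7 and 38.1 in the WT lists at 0 h. Background coverage of the KO libraries was 3.35 and 2.17 reads at 6 h and 1.77 and 1.43 reads at 0 h, and its part in these counts was not tested. Groups of 2 libraries are too small to single out a library.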

How the results depend on the processing

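The gained and lost counts stayed within 1.5 times those reported with a −log10 q of at least 5, with joining at 50% overlap, with calls by summit, with regions chained over all 12 lists and with thinned lists. An equal number of peaks per list gave 6099 gained, 4387 lost and a gained share of 58.2%. That share was 85.0% at the stricter q, 85.8% with calls by summit and 84.9% with 10 lists thinned together, an alternative chosen after the data were seen. Leaving out 1 library gave 15057 to 20379 gained regions, 3120 to 4661 lost and gained shares of 76.7% to 86.7%. Over 20 thinnings of the 4 lists, 11327 to 11389 regions were gained and 1738 to 1779 lost. The share of WT gains also gained in KO was 58.2% at the stricter q and 48.6% with 10 lists thinned, and the share called in both WT libraries at 2 h was 14.9% in those 10 thinned lists; the cause of these shifts was not tested. Rank shifts of at least 10 points gave 9392 higher and 10324 lower regions, and of at least 30 points 2371 and 1552. Ranking by fold, by thinned coverage, or without 1 library kept both counts within 1.5 times. The 20 named gained and lost regions kept their class at 50% overlap. They also kept it at the stricter q, with equal numbers and with the 4 lists thinned. Those last settings only take peaks or reads away. As the 20 were picked for high percentiles, that outcome was largely fixed in advance.

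With the replicate number as a block, the difference in peak number was 16452.5 again, with an exact sign-flip p = 0.5, the smallest that 2 pairs can give. The labels share only a number: the differences of replicate 1 minus replicate 2 at 6 h and at 0 h, in percentiles of 51928 regions, had a correlation of −0.0021. The counts of regions need 2 of 2 and 0 of 2 libraries, so pairing leaves them as they are. Low coverage limits the weakest calls, which rest on 10 reads.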
